A study of Mus musculus with 6 samples.

Results

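The transcripts of cytosolic ribosomal proteins were compared between livers of mice without hepatocyte Pex5 and WT livers. Members were the genes with a symbol of Rpl or Rps and a digit, or Rplp0, Rplp1, Rplp2 or Rpsa, taken from probe sets that the platform annotation gives exactly 1 symbol. Kinases of the Rps6k family, Rps19bp genes and pseudogenes were left out, and the probe set with the highest mean over all 6 arrays stood for its gene. The rule found 49 genes, 26 of the large and 23 of the small subunit, among 18193 genes with such a probe set. Another 110 probe sets name a ribosomal protein among several symbols, and 31 ribosomal protein genes, Rpl5 and Rplp1 among them, have no other probe set on this array. These are not members, so the 49 are a part of the ribosome's proteins and not all of them.

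A ribosome is built from a large and a small subunit, each made of ribosomal RNA and many different proteins that are needed in equal numbers. The proteins are made in the cytosol, carried to the nucleolus and joined there to the ribosomal RNA with the help of assembly factors and small nucleolar RNAs. Their mRNAs begin with a run of pyrimidines, the terminal oligopyrimidine (TOP) motif, through which mTORC1 and LARP1 set how well they are translated. The liver, which secretes most plasma proteins, is rich in ribosomes.

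The study measured total RNA from whole livers of male mice aged 10 weeks on Affymetrix arrays, with 3 WT animals and 3 animals of the genotype L Pex5 -/- (KO). Both groups carry the label mixed, Alb-Cre Tac:[Sw]fBR for their background. The albumin promoter drives Cre in hepatocytes, and which other liver cells of the KO animals keep the gene was not measured. Pex5 is the receptor that brings enzymes into the peroxisome, and the comparison asks what its loss in hepatocytes does to the liver's transcripts. Levels are log2 values made with RMA (a method that corrects background, equalizes the distribution of arrays and summarises probes), so a difference of 1 is a doubling, and arrays are given in the order of their labels.

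Pex5 itself was 9.14, 8.88 and 9.11 in WT and 9.35, 9.19 and 9.13 in KO, a difference of 0.18 ± 0.11 (SE; limma adjusted p = 0.262), and its probe set is not known to cover the deleted part, so it does not check the labels. The correlation between arrays over all genes was at least 0.989 within a group and at most 0.976 between groups. Bacterial and phage control transcripts averaged 9.67 to 9.75 on the WT and 9.23 to 9.31 on the KO arrays. A level of 4.90, under which 95% of 39 olfactory receptor genes had their mean, was taken as background, and 46 members were above it on all 6 arrays. All 8 measured hepatocyte markers were above background on every array, with differences from -0.58 (Asgr1, which fell) to 0.15 (Alb).

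Transcripts of ribosomal proteins were higher in the KO livers in 25 of the 49 genes and lower in 1, Rps4l, by limma at an adjusted p under 0.05. This is 51.0% of the members against a background of 14.2% of all genes that rose, and 9.75% of all genes fell. The median difference of the members was 0.30, beside -0.05 over all genes, and the difference was above 0 in 43 of the 49. By the probe set that stands for each gene, Rpl12, a protein of the stalk base, rose the most at 2.74-fold, followed by Rpl14 at 2.66-fold. The other 23 rises lay between 1.23-fold for Rpl7 and 1.98-fold for Rpl22l1. A change in the number of cells of a type and a change in RNA per cell cannot be told apart in RNA from whole liver. Among the 6 fits that left out 1 array, the count of rises was lowest at 13 without KO replicate 2, where 8.23% of all genes rose, and 16 without KO replicate 1, where 8.82% did. Of the 25 rises, 12 lost their call without at least 1 array.

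The array medians separated the groups without overlap. Measured from each gene's WT mean, the median member stood at -0.023, 0.01 and 0.026 on the WT arrays and at 0.271, 0.357 and 0.274 on the KO arrays, while the median of all genes on the KO arrays lay between -0.061 and -0.037. KO replicate 2 had the highest member median of the 6 arrays. In 39 of the 49 genes every KO array was above every WT array, against 22.1% of all genes, and in 4 every KO array was below, against 22.6%. All 25 genes that rose are among the 39. The other 14, such as Rps10, Rpl6 and Rps3, kept the groups apart without passing the test.

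**Figure D1:**
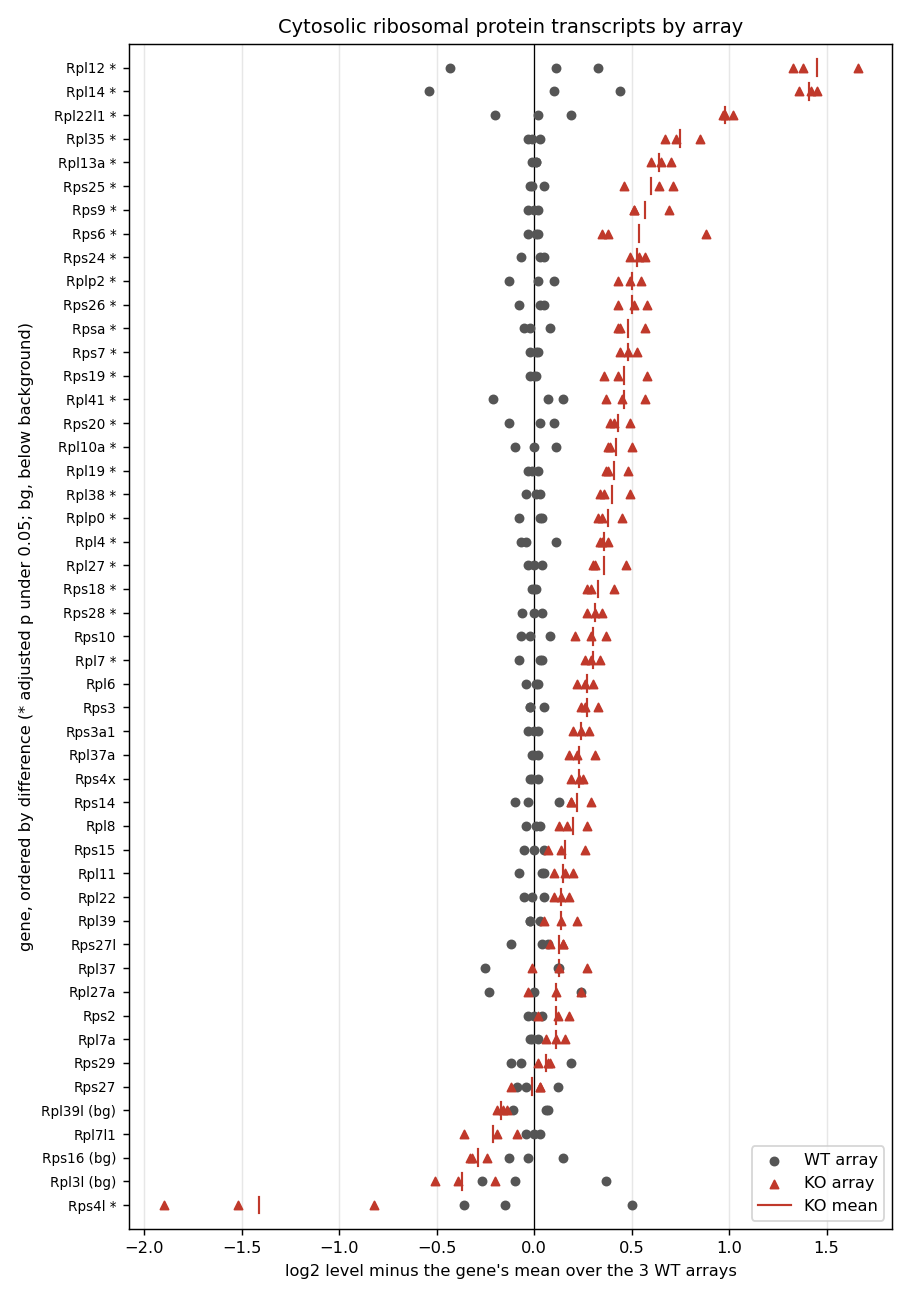
Log2 level of each of the 49 genes on the 3 WT (circles) and 3 KO (triangles) arrays, measured from the gene's WT mean, with a bar at the KO mean; genes are ordered by difference, an asterisk marks an adjusted p under 0.05 and bg a probe set below background. Most KO arrays lie to the right of the WT arrays, Rpl12 and Rpl14 stand farthest right and Rps4l farthest left.

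Genes of both subunits rose. Of the 26 large subunit genes 14 rose (53.8%) and none fell, with a median difference of 0.33. Of the 23 small subunit genes 11 rose (47.8%) and 1 fell, with a median of 0.30. These counts stand beside 14.2% of all genes that rose and 9.75% that fell. The lowest member of the large subunit was Rpl3l, at -0.37, and the lowest of the small subunit was Rps4l, at -1.41. No difference between the subunits was tested.

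The stalk of the large subunit, which recruits the elongation factors, is formed by Rplp0 with the P1 and P2 proteins and sits beside Rpl12. Rpl12 was 5.80, 6.02 and 5.26 in WT and 7.07, 7.35 and 7.02 in KO, a difference of 1.45 ± 0.19 (SE, n = 3 a group, limma adjusted p = 0.00162). All 3 KO arrays were above all 3 WT arrays, and WT replicate 3 was the lowest. Rplp2, a P protein, was 12.28, 12.43 and 12.51 in WT and 12.84, 12.96 and 12.90 in KO, 1.41-fold higher (0.50 ± 0.10, limma adjusted p = 0.00858). Rplp0, the stalk's scaffold, was 12.34, 12.46 and 12.45 in WT and 12.75, 12.87 and 12.77 in KO, 1.30-fold higher (0.38 ± 0.09, limma adjusted p = 0.019), a call lost when any one of the KO arrays was left out (limma adjusted p 0.0505 to 0.08). The 3 measured stalk genes thus rose with no overlap between groups, though by unequal amounts on their probe sets. The probe set of Rpl12, its only one, had a mean level of 6.42, and those of Rplp0 and Rplp2 had 12.60 and 12.65. How far the unequal amounts reflect the probe sets was not tested.

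Rpl14, a protein at the surface of the large subunit, had the next largest rise. It was 6.89, 6.55 and 5.91 in WT and 7.87, 7.90 and 7.81 in KO, 2.66-fold higher (1.41 ± 0.22, limma adjusted p = 0.00325). The WT arrays spread over almost 1 log2 unit while the KO arrays lay close together. Rpl35, which lies near the exit of the nascent chain's tunnel, was 11.74, 11.78 and 11.72 in WT and 12.48, 12.60 and 12.42 in KO, 1.69-fold higher (0.75 ± 0.09, limma adjusted p = 0.000991). Rpl13a, which can leave the ribosome to silence inflammatory mRNAs, was 12.57, 12.59 and 12.59 in WT and 13.18, 13.28 and 13.23 in KO, 1.56-fold higher (0.64 ± 0.08, limma adjusted p = 0.00141). For both genes the gap between groups was several times the spread within either. Rpl11, which binds MDM2 when ribosome assembly is disturbed, differed less. It was 12.06, 12.18 and 12.19 in WT and 12.30, 12.34 and 12.24 in KO, a difference of 0.15 ± 0.09 that did not pass (limma adjusted p = 0.237), although every KO array was above every WT array.

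In the small subunit the rises of Rps25, Rps9 and Rps6 were the largest by the probe set that stands for each gene. This order depends on that choice: the probe sets of Rps18 differed by 0.11 to 0.78 and those of Rps24 by -0.03 to 0.69. Rps25, which some viral RNAs need to start translation, was 5.94, 5.93 and 6.00 in WT and 6.41, 6.59 and 6.66 in KO, 1.51-fold higher (0.60 ± 0.10, limma adjusted p = 0.00387). Rps9, at the channel through which mRNA enters, was 12.05, 12.03 and 12 in WT and 12.54, 12.72 and 12.54 in KO, 1.49-fold higher (0.57 ± 0.09, limma adjusted p = 0.00361). Neither gene's groups overlapped. Rps6, the substrate of the S6 kinases below mTORC1, was 6.74, 6.78 and 6.79 in WT and 7.12, 7.65 and 7.15 in KO, 1.45-fold higher (0.54 ± 0.15, limma adjusted p = 0.032). Its KO replicate 2 stood apart from the other KO arrays, and without it the Rps6 difference was 0.37 with a limma adjusted p of 0.0577. The Rps6 call was lost in 6 of 15 refits: without KO replicate 2 or any one of the WT arrays, after quantile normalization (limma adjusted p = 0.0733) and with the mean of its probe sets (0.27, limma adjusted p = 0.101). Rpsa, also known as the laminin receptor, was 11.65, 11.75 and 11.62 in WT and 12.11, 12.24 and 12.10 in KO, 1.39-fold higher (0.48 ± 0.09, limma adjusted p = 0.00795), and its groups did not overlap. Rps3, which lines the mRNA entry, was 12.03, 12.03 and 12.10 in WT and 12.29, 12.38 and 12.31 in KO, a difference of 0.27 ± 0.08 that fell just short of the threshold (limma adjusted p = 0.0515).

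Loss of 1 copy of some ribosomal protein genes can cause Diamond-Blackfan anaemia, an inherited failure of red cell production. Of these genes, 5 of the small subunit were picked for naming. They are a partial list, so how many of them rose does not describe the disease's genes. Rps24 was 12.32, 12.34 and 12.22 in WT and 12.78, 12.86 and 12.83 in KO, 1.44-fold higher (limma adjusted p = 0.00406). Rps26, at the mRNA exit, was 12.11, 12.24 and 12.22 in WT and 12.70, 12.77 and 12.62 in KO, 1.42-fold higher (limma adjusted p = 0.00633). In both genes every KO array exceeded every WT array. Rps7 was 12.44, 12.47 and 12.48 in WT and 12.94, 12.99 and 12.90 in KO, 1.39-fold higher (limma adjusted p = 0.00523). Rps19, the gene most often mutated in the disease, was 10.97, 10.99 and 11 in WT and 11.35, 11.57 and 11.42 in KO, 1.37-fold higher (limma adjusted p = 0.0106). These rises of Rps7 and Rps19 had WT arrays nearly at one level. Rps10 was 12.69, 12.74 and 12.84 in WT and 13.05, 13.13 and 12.97 in KO, and its difference of 0.30 ± 0.09 did not pass (limma adjusted p = 0.0505).

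The other members that rose were Rpl22l1, described with the paralogs, and Rpl41, Rps20, Rpl10a, Rpl19, Rpl38, Rpl4, Rpl27, Rps18, Rps28 and Rpl7, with differences from 0.46 down to 0.30. Of the 23 that did not pass, 18 had a difference above 0 and 7 had an adjusted p between 0.05 and 0.1. Rps29, with the brightest probe set of all members, was 13.23, 13.28 and 13.54 in WT and 13.37, 13.42 and 13.43 in KO, a difference of 0.06 whose groups overlapped (limma adjusted p = 0.714).

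**Figure D2:**
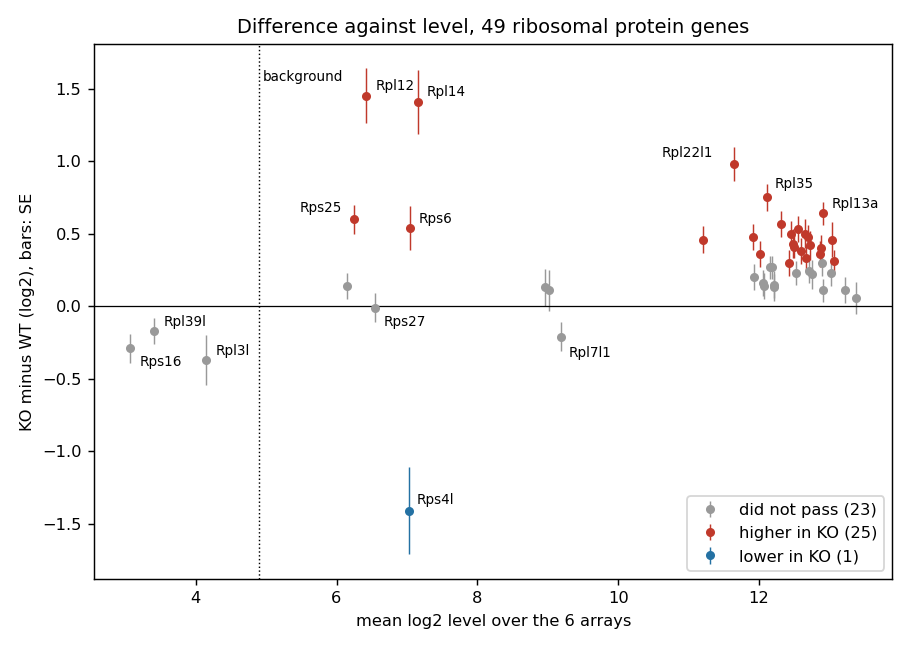
Difference between KO and WT (log2, bars show the SE) against the mean log2 level over the 6 arrays for each of the 49 genes, coloured by the limma call, with the background level as a dotted line. The 36 probe sets at a level of 10 or more all have a difference above 0, while the dimmer ones spread from -1.41 to 1.45.

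The differences spread more widely among the dim probe sets than among the bright ones. At a mean level of 10 or more stood 36 members, all within the brightest 5% of genes. All 36 differences lay above 0, from 0.06 to 0.98, with a median of 0.34. Among them were 21 rises (58.3%), against 14.2% of all genes at any level. The remaining 13 held the largest rises, Rpl12 and Rpl14, and all 6 differences below 0. The probe sets of 3 genes, Rpl39l, Rpl3l and Rps16, were below background on all 6 arrays. Rps16 was 3.19, 3.09 and 3.37 in WT and 2.89, 2.90 and 2.98 in KO, with a difference of -0.29 (limma adjusted p = 0.0722), which at this level describes the background. Without these 3 genes, 25 of 46 rose (54.3%), 1 fell and the median difference was 0.32, a subset chosen after the levels were seen. Across genes, which are not independent, level and difference correlated with r = 0.23 and rho = 0.14 over all 49, and with r = -0.30 and rho = -0.19 over the 36 bright ones, as a description of probe sets on shared arrays. Probe sets differ in how strongly they bind, so their levels give no order of transcript amounts.

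Several ribosomal proteins have a paralog that can take their place in a ribosome or is used in another tissue. Rpl22l1, the paralog of the RNA-binding Rpl22, was 11.16, 11.33 and 10.94 in WT and 12.11, 12.16 and 12.12 in KO, 1.98-fold higher (0.98 ± 0.12, limma adjusted p = 0.000908). Rpl22 was 11.95, 11.99 and 12.05 in WT and 12.10, 12.18 and 12.14 in KO, a difference of 0.14 ± 0.09 that did not pass (limma adjusted p = 0.246). Both genes had all KO arrays above all WT arrays, and the difference between their changes was not tested.

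Rps4l was the member that fell. It was 8.24, 7.59 and 7.38 in WT and 6.22, 6.92 and 5.84 in KO, 2.66-fold lower (-1.41 ± 0.30, limma adjusted p = 0.0126). All its KO arrays were below its WT arrays, but both groups spread widely, with an SD of 0.44 in WT and 0.55 in KO. Its X-linked parent Rps4x, a small subunit protein, was 12.40, 12.39 and 12.43 in WT and 12.64, 12.66 and 12.60 in KO, a difference of 0.23 ± 0.08 in the other direction that did not pass (limma adjusted p = 0.0771).

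Rpl7l1, a nucleolar relative of Rpl7, was 9.33, 9.30 and 9.26 in WT and 9.11, 9.21 and 8.94 in KO, a difference of -0.21 ± 0.10 (limma adjusted p = 0.161). Its KO arrays were all below its WT arrays, whereas Rpl7 was 12.20, 12.31 and 12.32 in WT and 12.54, 12.62 and 12.57 in KO and rose 1.23-fold (limma adjusted p = 0.0414), a call lost without any one array but WT replicate 3. Rps27l, a p53 target, was 12.03, 12.22 and 12.19 in WT and 12.30, 12.23 and 12.30 in KO, a difference of 0.13 ± 0.09 (limma adjusted p = 0.317), with the groups barely apart. Rps27 was 6.46, 6.51 and 6.67 in WT and 6.43, 6.58 and 6.58 in KO, a difference of -0.01 with overlapping groups (limma adjusted p = 0.929).

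The paralogs known from other tissues were not measured above background. Rpl3l, the heart and skeletal muscle form of Rpl3, was 4.06, 4.70 and 4.23 in WT and 4.13, 3.82 and 3.94 in KO (-0.37 ± 0.17, limma adjusted p = 0.156), and its groups overlapped. Rpl39l, the form of the male germ line, was 3.38, 3.55 and 3.56 in WT and 3.33, 3.30 and 3.35 in KO (-0.17 ± 0.09, limma adjusted p = 0.212). Its parent Rpl39, in the wall of the exit tunnel, was 6.06, 6.06 and 6.11 in WT and 6.30, 6.22 and 6.13 in KO (0.14 ± 0.09, limma adjusted p = 0.288), with KO replicate 3 only just above the WT arrays.

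**Figure D3:**
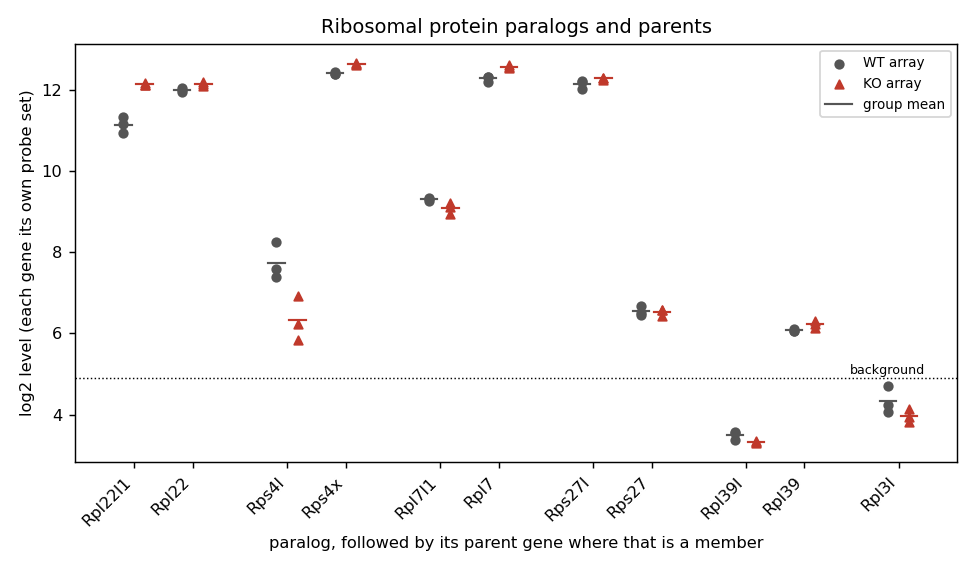
Log2 level on each WT (circles) and KO (triangles) array for 6 paralogs and the 5 parent genes that are members, with a line at each group's mean and the background as a dotted line. Rpl22l1 lies higher and Rps4l lower in KO, while Rpl39l and Rpl3l stay under the background; levels of different probe sets cannot be set against each other.

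Counts over probe sets are not an independent reading. The 105 probe sets of members include the 49 that stand for their genes, and 25 members have only 1. In a fit over all 45037 probe sets, added after the annotation was seen, 49 of the 105 probe sets of members rose and 2 fell, against 9.59% of all probe sets that rose and 6.69% that fell. Their median difference was 0.33, beside -0.06 over all probe sets. The 110 probe sets that name several ribosomal protein symbols, which the member rule does not use, had 42 rises and no fall, with a median of 0.28; in these the gene behind a signal is uncertain, and probe sets of near-identical copies and pseudogenes may share transcripts. The 5 bright probe sets of Rpl35 rose by 0.75 to 1.04, and a probe set at a level of 3.58 differed by -0.02. The 4 probe sets of Rpl13a all rose, by 0.64, 0.71, 0.83 and 1.39, the larger values at the lower levels. Rps3 was the only member with calls in opposite directions: its bright probe set differed by 0.27, 1 dim probe set rose by 0.75 and another fell by 1.00. Rps9 rests on probe sets that may bind several transcripts: its 1 probe set without an _x or _s suffix, which lay near background, differed by 0.36 with a limma adjusted p of 0.249. The 4 probe sets of Rps24 that rose, by 0.49 to 0.69, carry the _x suffix too, and a dimmer one without it differed by 0.58 (limma adjusted p = 0.221).

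The start of the mRNA is where the TOP motif lies, so the sequence around the annotated start was read for each member. RefSeq windows of 300 bases (GRCm38.p6, 250 before and 50 after the start) matched 43 of the 49 genes with 51 starts; Rpl7, Rpl8, Rps14, Rps20, Rps29 and Rps4l were not matched. A pyrimidine tract, defined here as C followed by C or T for at least 8 bases in all on the sense strand and beginning from 20 bases before to 30 after the start, was at 25 of the 51 starts (49%), against 15.6% of all 32851 starts and 15.8% of the 21262 starts of coding genes. The following stretches of 70 bases run from 40 bases before to 30 from the start, 5′ to 3′ on the gene's strand, with the tract in capitals. They show 5 members that rose with a tract, 1 that rose without one and 1 paralog with a negative difference and none.
Rps6 (chr4:86857338-86857407, minus strand): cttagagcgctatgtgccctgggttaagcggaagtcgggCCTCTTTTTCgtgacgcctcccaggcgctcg
Rpl35 (chr2:39005102-39005171, minus strand): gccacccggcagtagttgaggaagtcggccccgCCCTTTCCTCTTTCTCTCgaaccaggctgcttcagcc
Rpl13a (chr7:45128716-45128785, minus strand): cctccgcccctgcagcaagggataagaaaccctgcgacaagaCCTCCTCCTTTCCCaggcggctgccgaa
Rplp2 (chr7:141447611-141447680, plus strand): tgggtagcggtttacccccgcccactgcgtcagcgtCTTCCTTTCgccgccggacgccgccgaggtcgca
Rpl22l1 (chr3:28805468-28805537, plus strand): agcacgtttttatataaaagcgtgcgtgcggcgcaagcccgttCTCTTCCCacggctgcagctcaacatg
Rpsa (chr9:120127726-120127795, plus strand): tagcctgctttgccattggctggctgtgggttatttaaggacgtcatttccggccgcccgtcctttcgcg
Rpl7l1 (chr17:46782627-46782696, minus strand): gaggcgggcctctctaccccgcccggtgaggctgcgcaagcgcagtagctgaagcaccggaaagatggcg

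The tract began 1 base before the annotated start in Rps6, 7 before it in Rpl35, 4 before it in Rplp2, 2 after it in Rpl13a and 3 after it in Rpl22l1. Among the 25 genes with a tract 15 rose, with a median difference of 0.40, and among the 18 without, 8 rose, with a median of 0.27. Both are descriptions with no test, and an annotated start need not be the one that liver uses. Other short motifs were searched over the 300 bases on both strands. CCGGAAG, a form of the site of ETS factors, was in 41.2% of the members' windows, 8.86% of all windows and 11.6% of those at the starts of coding genes, and TCTCGCGA, a palindrome, in 19.6%, 0.995% and 1.41%. AANATGGC, the core of the YY1 site, was in 15.7% of the members' windows, 6.05% of all and 6.37% at coding genes, and GGGCGG, the SP1 box, in 52.9%, 35.7% and 46.2%. The ETS letters were in 11 of the 23 matched members that rose and in 10 of the 20 that did not pass. A match says that these letters are in the window and nothing of binding.

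The machinery that makes ribosomes also rose. Of 74 genes of ribosomal RNA synthesis and ribosome assembly 49 rose (66.2%) and 1, Heatr1, fell (-0.37), with a median difference of 0.45. Over all genes 14.2% rose and 9.75% fell. Heatr1 lost its call in 7 of 15 refits, with any array but WT replicate 3 left out among them. In 1 more, which centred arrays on the control transcripts, its difference changed sign. Nop58, a core protein of the box C/D nucleolar RNAs, was 7.48, 7.57 and 7.46 in WT and 8.82, 8.96 and 8.71 in KO, 2.51-fold higher (limma adjusted p = 9.01e-05). Ncl, the nucleolar protein nucleolin, rose by 1.31, Taf1d, of the RNA polymerase I selectivity factor, by 1.30 and the assembly factor Tsr1 by 1.12. Polr1a, the largest subunit of that polymerase, rose by 0.61, while Fbl, the methyltransferase fibrillarin, differed by 0.20 and did not pass (limma adjusted p = 0.134). Of 8 host genes of small nucleolar RNAs, several of which have TOP mRNAs, 5 rose (62.5%), with a median of 0.92. Snhg1 was 7.34, 7.68 and 7.03 in WT and 9.27, 9.45 and 9.55 in KO, 4.22-fold higher (limma adjusted p = 0.000137). The other large rises of that list were Gas5 at 1.34, Snhg12 at 1.25 and Snhg5 at 1.16.

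Translation factors and other TOP mRNAs were also among the genes that rose, and no difference between these lists was tested. Over all genes 14.2% rose and 9.75% fell. Of 34 initiation factors 13 rose (38.2%) and none fell, with a median of 0.22. Eif3c (0.95), Eif3a (0.82), Eif2s2 (0.63) and Eif2b3 (0.59) rose the most. The count of their rises was 6 without KO replicate 2, 7 without KO replicate 1 and 8 with the mean of a gene's probe sets. In these refits 8.23%, 8.82% and 12.1% of all genes rose. Of 11 genes listed as elongation and termination factors 4 rose (36.4%) and none fell, with a median of 0.17. Etf1, which reads stop codons, rose by 0.72, Eef1b2 by 0.45 and Abce1, which splits ribosomes, by 0.43. Eef1e1, listed for its symbol, belongs to the complex of aminoacyl-tRNA synthetases and is not an elongation factor. It rose by 0.46. Leaving out KO replicate 2 brought the count of this list to 1 and leaving out either other KO array to 2. Without KO replicate 3, 10.8% of all genes rose. Eef1e1 lost its call in 7 of 15 refits. Eef1a1 and Eef2, the main elongation factors, each differed by 0.17 and did not pass (limma adjusted p = 0.18 and 0.218). Of 17 other genes with TOP mRNAs 6 rose (35.3%) and none fell, with a median of 0.19. Among those that rose were Npm1 (1.00), Pabpc1 (0.56), Btf3 (0.54) and Hnrnpa1 (0.51). The lists overlap, so their counts share genes. Npm1 is also in the list of ribosome assembly and Pabpc1 in that of initiation factors. Eef1b2, Eef1a1 and Eef2 are also in the list of elongation factors. Fau, which encodes a small subunit protein fused to a ubiquitin-like protein, differed by 0.12 and did not pass (limma adjusted p = 0.377). Of 18 cytosolic aminoacyl-tRNA synthetases 6 rose (33.3%) and none fell, with a median of 0.29. Gars (1.35), Sars (1.14), Eprs (0.88) and Rars (0.70) were among the rises.

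Among 27 genes that control ribosome synthesis and translation 11 rose (40.7%) and 3 fell, with a median of 0.27. Over all genes 14.2% rose and 9.75% fell. The count of rises was 4 without KO replicate 1, 7 without KO replicate 2 or with the mean of a gene's probe sets, and 6 after quantile normalization, and that of falls was 1 without KO replicate 3. Ddit4, an inhibitor of mTORC1, was 7.64, 7.48 and 7.49 in WT and 11.11, 10.18 and 10.77 in KO, 8.87-fold higher (limma adjusted p = 5.9e-05). Mtor itself rose by 0.69 (0.19, limma adjusted p = 0.1, as the mean of its probe sets) and Mdm2, which RPL11 binds, by 0.76. Pdcd4, an inhibitor of the helicase eIF4A, fell by 0.84, Eef2k, the kinase that inhibits Eef2, by 0.56 and Mycn by 0.29. Eef2k lost its call in 4 of 15 refits and differed by -0.08 on a probe set without an _x or _s suffix (limma adjusted p = 0.661). Mycn lost its call in 9, which include every left-out array. In 1 more, which centred arrays on the control transcripts, the Mycn difference changed sign. Larp1, the repressor of TOP mRNAs, differed by 0.27 and did not pass (limma adjusted p = 0.114). Myc, which drives ribosomal genes in growth, was 6.90, 8.78 and 7.17 in WT and 8.33, 8.46 and 9.47 in KO, and with WT replicate 2 above 2 KO arrays its difference of 1.14 ± 0.50 did not pass (limma adjusted p = 0.131).

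**Figure D4:**
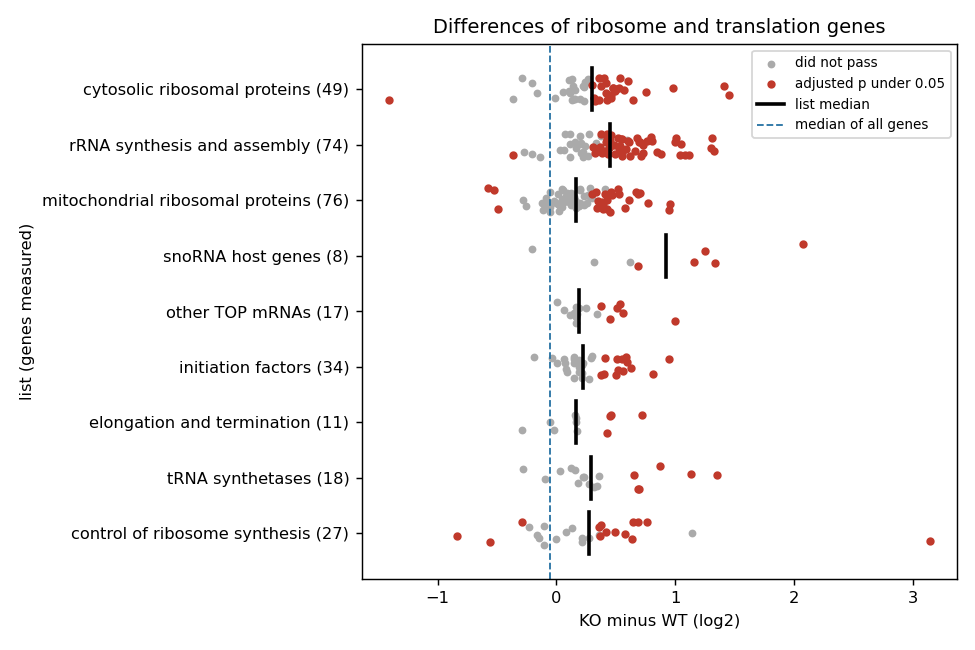
Difference between KO and WT (log2) of each measured gene in the list of ribosomal proteins and 8 related lists, with genes of an adjusted p under 0.05 in red, a black bar at each list's median and a dashed line at the median of all genes (-0.05). Every list's median lies to the right of that line, from 0.16 for mitochondrial ribosomal proteins to 0.92 for the host genes of small nucleolar RNAs. Some genes are in several lists.

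Mitochondrial ribosomal proteins, which build the separate ribosome of that organelle, are coded by other genes. Of 76 measured genes 23 rose (30.3%) and 3 fell, with a median of 0.16, while 14.2% of all genes rose and 9.75% fell. The difference between this list and the cytosolic one was not tested. Leaving out KO replicate 1 gave 12 rises, leaving out KO replicate 2 gave 13 and leaving out WT replicate 2 gave 15. In these refits 8.82%, 8.23% and 11.6% of all genes rose. The largest rises were Mrpl19 (0.96), Mrpl50 (0.95), Mrpl54 (0.77) and Mrps9 (0.71), and the falls were Mrps36 (-0.58), Mrpl34 (-0.53) and Mrpl4 (-0.49), named after their values were seen; Mrpl34 lost its call without WT replicate 2, KO replicate 2 or KO replicate 3.

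Markers of dividing cells moved with the ribosomal proteins. All 5 measured of 6 rose, and their summed linear level was 158 to 195 in WT and 311 to 470 in KO; Birc5, Mki67 and Top2a were below background on some arrays, so that their differences are not exact. Their part in the rise of the ribosomal proteins was not tested. Over all genes 14.2% rose and 9.75% fell. Of 8 hepatocyte markers none rose and 1, Asgr1, fell (-0.58), and their summed level was 110700 to 115094 in WT and 109929 to 111909 in KO. None of 10 macrophage, 6 T and NK cell, 4 B cell, 4 neutrophil and 3 erythroid markers passed in either direction. Of these, Cd3g, Nkg7, Mpo and Hba-a1 were below background on all arrays. Ms4a1, Cd79a, Cd79b, S100a8, Elane and Slc4a1 were below it on some arrays. Their blank result therefore does not show that such cells were unchanged. Of 8 sinusoidal endothelial markers 3 fell and 1, Lyve1, rose from below background on all 3 WT arrays to 5.92, 7.08 and 7.20 in KO (summed level 2906 to 3276 in WT and 2360 to 2605 in KO), and of 8 stellate cell markers 2 fell (4026 to 4384 and 3205 to 3600). Of 5 bile duct markers 1 fell, Krt19, which was below background on all 3 KO arrays and WT replicate 2 and lost its call in 7 of 15 refits, and Krt7 and Cftr were below background on all arrays.

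The control transcripts added to the arrays were lower by 0.44 in KO, and RMA makes levels relative to the whole array. Centring on those controls adds 0.44 to each difference: 45 of the 49 members then rose and Rps4l still fell, but 60.9% of all genes rose as well (11086 higher and 475 lower, against 2589 and 1774). The direction of Rpl7l1, Rpl3l, Rpl39l, Rps16 and Rps27, and of Heatr1 and Mycn, flipped under it. In all 15 refits, which cover scaling, a filter, choice of probe set, model and left-out arrays, 11 of the 25 rises and the fall of Rps4l passed. The rises were Rpl12, Rpl13a, Rpl14, Rpl22l1, Rpl35, Rplp2, Rps19, Rps25, Rps26, Rps7 and Rpsa. Rpl12, Rpl14, Rpl22l1, Rplp2, Rps19, Rps25, Rps26 and Rps4l have no other probe set. For these, the refits on choice of probe set kept the same levels by construction and do not test them.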

How the data were processed

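Livers of 3 WT and 3 KO mice gave 1 array each; RNA came from a Trizol extraction and carried a biotin label, per the labels' protocols. Per the submitters' processing notes the authors used RMA (version not given), which yields a log2 level for each probe set; the range of the deposited values (2.15 to 14.9) shows the log2 scale. Scanner signals were not used here, and the number of arrays limits the precision. Of 45101 probe sets, 64 are controls, 34945 have 1 symbol, 932 several and 9160 none in the annotation. The gene table of GRCm38.p6 changed 0 symbols, and 204 had no match.

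From these values, lmFit and eBayes of limma 3.58.1 (R 4.3.3, two-sided, with no filter) tested KO against WT over 18193 genes with Benjamini-Hochberg adjustment at 0.05. The fit was also run on simulated data, as a check of its mean error and share of false calls. That check does not show how often differences as small as those of most members are found. Nothing says how samples relate beyond 1 array per liver label, so p-values measure the spread between these samples. Named genes are stalk and MDM2-binding genes, some anaemia genes, Rps6, Rps3, Rpsa, Rpl13a and paralogs with parents. Also named are the 8 largest rises, the 5 lowest differences and up to 4 called genes of each list. Members and lists were chosen with earlier results of these data known. Alternatives changed scaling, probe set choice, filter, model, thresholds and arrays.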

Additional observations from a re-analysis of the deposited data

How the results depend on the processing

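Of 49 members, the count that rose was 25. It was 45 with arrays centred on the control transcripts (60.9% of all genes) and 12 at an adjusted p under 0.01 (7.06% of all genes). At an adjusted p under 0.05 with a difference of at least 0.5 also required it was 10 (9.59% of all genes). When 1 array was left out it was 13 to 25, while 8.23% to 13.3% of all genes rose. The other scalings, probe set rules and models gave 22 to 31, and with dim genes filtered 29 of 46 members rose against 21.5% of 12406 genes. The count that fell was 1, and was 2 after quantile normalization, which adds Rpl7l1, and 0 at an adjusted p under 0.01. The median difference of 0.30 was 0.34 with centring on the array median and 0.74 with centring on the controls; it was 0.27 to 0.32 with 1 array left out. Centring on the controls turned Rpl39l to 0.27, Rpl3l to 0.08, Rpl7l1 to 0.23, Rps16 to 0.15, Rps27 to 0.43, Heatr1 to 0.07 and Mycn to 0.15, each by its construction, since it adds 0.44. Rps27 was 0.03 with centring on the array median and -0.06 to 0.05 with 1 array left out. The replicate block gave 22 rises and 1 fall, while 13.6% of all genes rose and 1618 of 18193 fell. The labels state no pairing, and same-numbered arrays deviated together with r of 0.105, -0.018 and 0.105. With 3 arrays a group, small differences of dim probe sets could not be resolved.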
